A study of Homo sapiens with 6 samples.

Results

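The 10 genes described here belong to the integrated stress response, the program run by the transcription factors ATF4 and CHOP. They are EIF2AK3, ATF4, DDIT3, ATF3, CEBPB, TRIB3, CHAC1, ASNS, SESN2 and PPP1R15A. They were chosen by name as core components of the pathway, with earlier results of these data known, so counts over them are description only. All 10 were found among the 20330 Ensembl genes that each of the 6 tables lists. The study compared U251 cells, an established human glioblastoma line, with stable overexpression of XLOC013218, a long noncoding RNA, with control U251 cells, in 3 libraries each. Apart from the genotype, both groups carried the same labels. The sources used here do not say whether the overexpressing cells are 1 clone or a pool, or what the control cells carry. XLOC013218 is not among the loci analysed here, so the labels could not be checked by it. Replicates are called independent and biological, but nothing says whether they were separate cultures, so p-values measure the spread between these libraries.

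When a cell meets unfolded protein, missing amino acids, viral RNA or heme shortage, a sensor kinase phosphorylates the translation factor eIF2. General protein synthesis slows, while the ATF4 mRNA, which carries upstream open reading frames, is translated better. ATF4 then switches on genes for amino acid supply and redox balance, and also DDIT3, which encodes CHOP, a factor tied to cell death when stress persists. Much of the control over ATF4 is therefore at translation, and the values here are mRNA levels only. Glioblastoma cells are known to use the pathway under nutrient and oxygen shortage.

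Levels are given as FPKM, fragments counted per unit of transcript length and of library size. Being per length, they can be compared between genes, but they hold no read totals. In bulk RNA, more cells that express a gene and more RNA per cell cannot be told apart. The steps between low values put the relative depth of the overexpression libraries between 0.78 and 0.9 and that of the control libraries between 0.77 and 1.0. Of 10 astrocyte and glioma lineage markers, 7 reached 1 FPKM, while S100B, OLIG2 and AQP4 stayed under 1 FPKM. The 10 lineage markers summed to between 4814 and 5033 FPKM in overexpressing cells and between 5096 and 5478 FPKM in control cells, without overlap. These sums are mostly VIM (means of 3581 FPKM in overexpressing and 3840 FPKM in control cells) and CD44 (1088 and 1178 FPKM). The means of SOX9, S100B and OLIG2 were higher in overexpressing cells, and those of the other lineage markers were lower. SOX2, a neural stem cell factor, averaged 102 FPKM in overexpressing and 116 FPKM in control cells. GFAP, the defining astrocyte filament, averaged 21.6 FPKM in overexpressing and 41.6 FPKM in control cells. Of 16 listed markers of other cell types, 4 reached 1 FPKM: SNAP25, SYT1, MAP2 and CD68. The 4 immune markers summed to between 10.05 and 11.8 FPKM in overexpressing cells and between 6.76 and 7.66 FPKM in control cells, mostly CD68, with CD3E listed at 0 in every library. The part of these markers in the results below was not tested.

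All 10 genes had a higher mean in overexpressing than in control cells, by a ratio of means between 1.06 and 1.42, and none passed the test over all genes. Each of them lay above its control mean in each of the 3 overexpression libraries. In 7 of the 10, all except ATF4, ATF3 and PPP1R15A, the 3 overexpression values lay above the 3 control values. That held for 8.81% of the 11731 genes tested. An adjusted p under 0.05 in limma-trend on log2(FPKM + 1) was reached by 0 of the 10, against 0.52% of all tested genes in either direction. At an unadjusted limma p under 0.05 there were 7 of the 10, all higher, against 5.81% of tested genes that were higher and 6.9% that were lower at that p. Of the 61 genes past the threshold over the whole table, 37 were higher and 24 lower, and after rescaling to TPM 31 were lower and 30 higher. The median log2 fold change of the 10 genes was 0.22, beside -0.0008 for all tested genes, and 49.7% of tested genes had a value above 0. With 3 libraries per group the smallest two-sided p of an exact permutation test is 0.1, and the 7 genes without overlap sit at that limit.

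**Figure D1:**
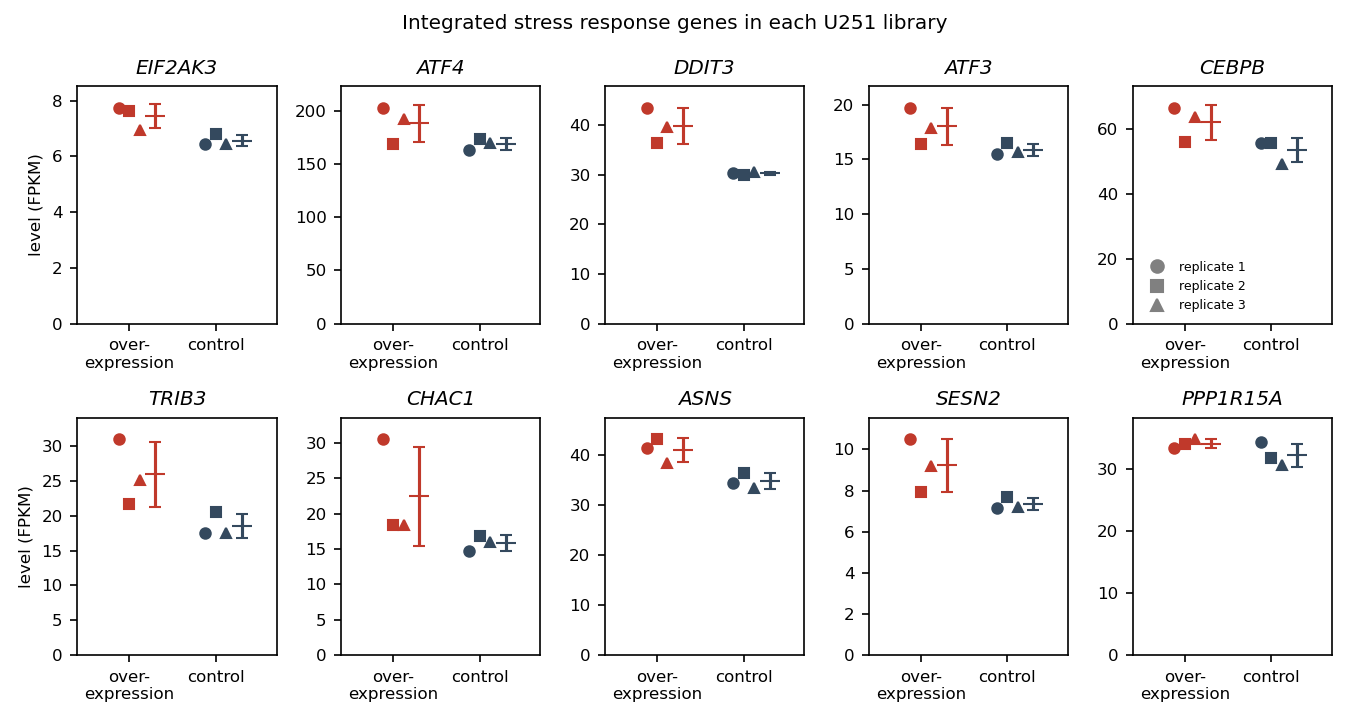
Level in FPKM (y axis, from 0, own scale per gene) of the 10 genes in each library of XLOC013218-overexpressing and control U251 cells. Marker shapes give the replicate number, and the bar beside each group gives mean ± SD (n = 3). In DDIT3 the 3 overexpression values, 36.3 to 43.5 FPKM, stand clear of the 3 control values near 30.3 FPKM, whereas the groups of ATF4, ATF3 and PPP1R15A overlap.

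EIF2AK3 (ENSG00000172071, chromosome 2) encodes PERK, the eIF2 kinase that senses unfolded protein in the endoplasmic reticulum. Its level was 7.75, 7.64 and 6.95 FPKM in overexpression replicates 1 to 3, against 6.43, 6.80 and 6.46 FPKM in control replicates 1 to 3. The groups did not overlap, but the lowest overexpression value was only just above the highest control value. Its log2 fold change was 0.16 (SE 0.09, 95% interval -0.04 to 0.35, limma adjusted p = 0.496).

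ATF4 (ENSG00000128272, chromosome 22), the central transcription factor, was the most abundant of the 10. It was at 203, 169 and 193 FPKM in overexpression replicates 1 to 3, against 163, 174 and 169.7 FPKM in control replicates 1 to 3. Overexpression replicate 2 lay within the control range and the other two lay above it. The mean was 189 ± 17.4 FPKM in overexpressing and 169 ± 5.33 FPKM in control cells (SD, n = 3 each). On the log2 scale the difference was 0.15 (SE 0.07, 95% interval 0.002 to 0.30, limma adjusted p = 0.391). Without overexpression replicate 1 it was 0.10.

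DDIT3 (ENSG00000175197, chromosome 12), the gene of CHOP, had the lowest p of the 10. Its level was 43.5, 36.3 and 39.7 FPKM in overexpression replicates 1 to 3, against 30.3, 29.98 and 30.5 FPKM in control replicates 1 to 3. The control libraries were almost identical, with a coefficient of variation of 0.865%, and every overexpression library was higher. The mean was 39.8 ± 3.58 FPKM in overexpressing and 30.3 ± 0.262 FPKM in control cells (SD, n = 3 each), a ratio of 1.32. The log2 fold change of 0.38 (SE 0.07, 95% interval 0.23 to 0.54) had rank 74 by p among 11731 tested genes and did not pass (limma adjusted p = 0.0537). It passed with a minimum mean of 5 FPKM (limma adjusted p = 0.0420), with array quality weights (adjusted p = 0.0227) and without overexpression replicate 2 (adjusted p = 0.0361), in a range of 0.0227 to 0.208 over its alternatives.

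DDIT3 lies opposite to a pair of neighbours in GENCODE 29, MARS1 (listed there as MARS) and MBD6, whose transcribed regions overlap it on the other strand. The library kit keeps strand, but no source used here says whether the counting did. MARS1 averaged 83.8 FPKM in overexpressing and 80.7 FPKM in control cells (log2 fold change 0.05, limma adjusted p = 0.731), and MBD6 averaged 18.0 and 20.0 FPKM in the same order (log2 fold change -0.15, limma adjusted p = 0.386). The groups of MARS1 overlapped, and those of MBD6 did not, with the overexpression values below the control values. On its own strand DDIT3 also overlaps AC022506.1, annotated as protein coding, and the microRNA gene MIR616. Neither is analysed here, and strand would not separate reads shared with them. ASNS, EIF2AK3 and CEBPB also overlap noncoding genes that are not analysed here. For ATF4 and ASNS, 4 pseudogenes each are named in the table of gene names and none is listed in these files, so how reads shared with them were counted is uncertain.

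ATF3 (ENSG00000162772, chromosome 1), a stress-induced bZIP repressor and activator that also answers to other signals, was at 19.7, 16.4 and 17.9 FPKM in overexpression replicates 1 to 3, against 15.4, 16.5 and 15.7 FPKM in control replicates 1 to 3. As for ATF4, overexpression replicate 2 fell inside the control range. Its log2 fold change was 0.17 (SE 0.08, 95% interval -0.01 to 0.35, limma adjusted p = 0.427), and 0.10 without overexpression replicate 1. CEBPB (ENSG00000172216, chromosome 20), a C/EBP factor that pairs with ATF4 and with CHOP, was at 66.5, 55.9 and 63.5 FPKM in overexpression replicates 1 to 3, against 55.6, 55.7 and 49.2 FPKM in control replicates 1 to 3. Its groups were separated by a margin far below the spread within either one, and the log2 fold change was 0.21 (SE 0.08, 95% interval 0.04 to 0.38, limma adjusted p = 0.298).

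TRIB3 (ENSG00000101255, chromosome 20) encodes a pseudokinase that CHOP and ATF4 induce and that damps ATF4 activity in turn. Of the 10 genes it showed the highest log2 fold change. It was at 31.0, 21.7 and 25.1 FPKM in overexpression replicates 1 to 3, against 17.5, 20.6 and 17.5 FPKM in control replicates 1 to 3. All 3 overexpression libraries were above the controls, replicate 1 by a wide margin and replicate 2 narrowly. That log2 fold change was 0.46 (SE 0.12, 95% interval 0.18 to 0.73, limma adjusted p = 0.157), and 0.912% of tested genes had a larger one. Without overexpression replicate 1 it was 0.32.

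CHAC1 (ENSG00000128965, chromosome 15), a glutathione-degrading enzyme induced by ATF4, depended most on a single library. It stood at 30.5, 18.4 and 18.4 FPKM in overexpression replicates 1 to 3, against 14.7, 16.9 and 15.99 FPKM in control replicates 1 to 3. Overexpression replicate 1 was far above everything else, and the other two lay just over the controls. The mean was 22.5 ± 6.99 FPKM in overexpressing and 15.8 ± 1.12 FPKM in control cells (SD, n = 3 each), and the log2 fold change was 0.44 (SE 0.17, 95% interval 0.06 to 0.82, limma adjusted p = 0.318). Without overexpression replicate 1 it was 0.21.

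ASNS (ENSG00000070669, chromosome 7), asparagine synthetase, is the classical target of the amino acid response. Its level was 41.4, 43.3 and 38.4 FPKM in overexpression replicates 1 to 3, against 34.5, 36.6 and 33.4 FPKM in control replicates 1 to 3. Here overexpression replicate 2 was the highest library, unlike in ATF4, DDIT3, TRIB3 and CHAC1. For ASNS the log2 fold change was 0.23 (SE 0.06, 95% interval 0.09 to 0.37, limma adjusted p = 0.164). SESN2 (ENSG00000130766, chromosome 1), a leucine sensor that restrains mTORC1, was at 10.5, 7.95 and 9.20 FPKM in overexpression replicates 1 to 3, against 7.14, 7.68 and 7.22 FPKM in control replicates 1 to 3. The groups did not overlap, and the log2 fold change was 0.28 (SE 0.10, 95% interval 0.05 to 0.52, limma adjusted p = 0.298). Without overexpression replicate 1 the value for SESN2 was 0.20.

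PPP1R15A (ENSG00000087074, chromosome 19) encodes GADD34, which recruits a phosphatase to eIF2 and so ends the response. It differed least of the 10. It was at 33.3, 34.0 and 34.8 FPKM in overexpression replicates 1 to 3, against 34.3, 31.8 and 30.6 FPKM in control replicates 1 to 3. Control replicate 1 lay among the overexpression values. Its log2 fold change was 0.08 (SE 0.06, 95% interval -0.06 to 0.21, limma adjusted p = 0.636), an interval that reaches 0.21 and so does not show equal levels. The value was 0.12 without control replicate 1 and 0.04 without control replicate 3.

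**Figure D2:**
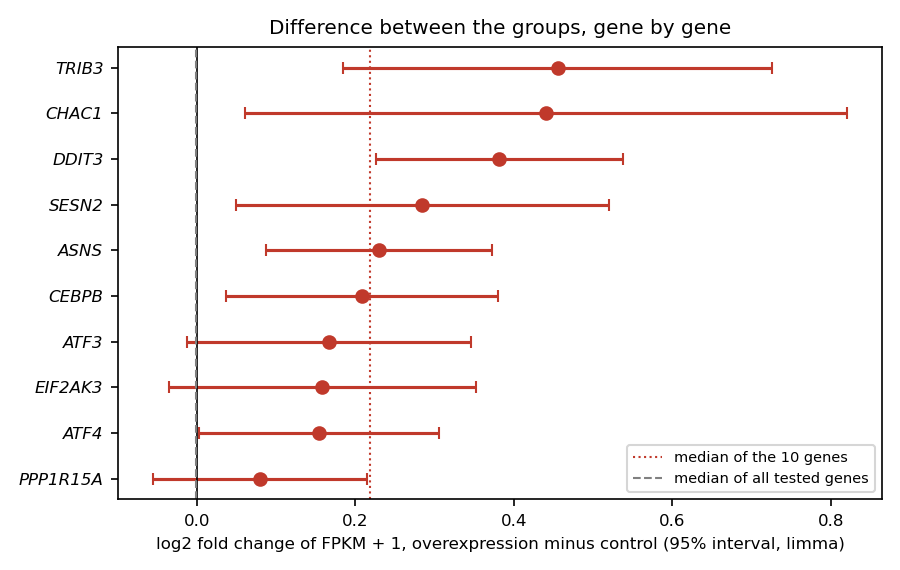
Log2 fold change of FPKM + 1, overexpression minus control (x axis), for each of the 10 genes, with the 95% interval from limma. All 10 points lie right of 0, from 0.08 for PPP1R15A to 0.46 for TRIB3, and the intervals of ATF3, EIF2AK3 and PPP1R15A include 0. The median of the 10 genes is 0.22, and that of all tested genes lies at 0.

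By mean level in control cells the order was ATF4, CEBPB, ASNS, PPP1R15A, DDIT3, TRIB3, ATF3, CHAC1, SESN2 and EIF2AK3, from 169 down to 6.56 FPKM. The control ranges of ASNS and PPP1R15A overlapped, as did those of ATF3 and CHAC1, so the order within these pairs is not settled. Every other neighbouring pair was separated in the control libraries. In overexpressing cells DDIT3 (36.3 to 43.5 FPKM) lay above PPP1R15A (33.3 to 34.8 FPKM), whereas in control cells PPP1R15A (30.6 to 34.3 FPKM) lay above DDIT3 (29.98 to 30.5 FPKM). This exchange of places was not tested.

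The 3 overexpression libraries were not alike. Replicate 1 held the highest overexpression value in 8 of the 10 genes, all except ASNS and PPP1R15A, which held for 35.4% of tested genes. Its median deviation from the control mean over the 10 genes was 0.30 on the log2(FPKM + 1) scale, beside 0.15 in replicate 2 and 0.20 in replicate 3. In 6 genes, namely ATF4, DDIT3, ATF3, CEBPB, TRIB3 and SESN2, the replicates had the order 1, 3, 2 from high to low, an order shared by 19.5% of tested genes. This pattern was noticed in the data and not tested. The coefficient of variation over the 3 libraries was higher in overexpressing than in control cells for 9 of the 10 genes, PPP1R15A being the exception, against 52.2% of all tested genes. It ran from 2.16% to 31.1% in overexpressing and from 0.865% to 9.60% in control cells.

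**Figure D3:**
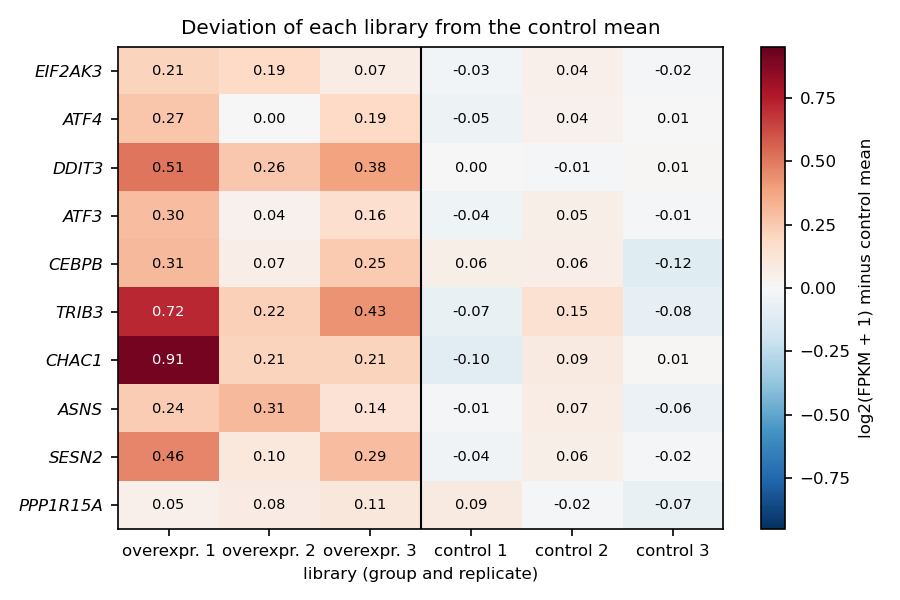
Deviation of each library from the control mean, in log2(FPKM + 1), for the 10 genes (rows) and the 6 libraries (columns, overexpression left of the line, control right). Red cells are above the control mean and blue cells below. The strongest cells are CHAC1 (0.91) and TRIB3 (0.72) in overexpression replicate 1, and ATF4 in overexpression replicate 2 is at 0.003.

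In overexpression replicate 2, ATF4 mRNA was at the control mean (deviation 0.003), while DDIT3, TRIB3, CHAC1 and ASNS were above theirs by 0.26, 0.22, 0.21 and 0.31 on the log2(FPKM + 1) scale. These were the largest deviations in that library. EIF2AK3, SESN2, PPP1R15A, CEBPB and ATF3 were above theirs by 0.19, 0.10, 0.08, 0.07 and 0.04. Control replicate 2 itself was above the control mean of TRIB3 by 0.15. ATF4 and ATF3 were the most alike of the 45 pairs among the 10 genes, with a root mean square difference of 0.03 in these deviations over the 6 libraries. CHAC1 and PPP1R15A were the least alike, at 0.37.

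Promoter sequences show which of these genes carry, near their start, the element through which ATF4 and C/EBP factors are known to act. RefSeq promoters of GRCh38.p14 matched all 10 genes, in 17 windows because some genes have several starts. Each window ran from 250 bases before the start to 50 bases after it. On both strands, TGATGNAAN, the composite C/EBP-ATF element, was found in windows of 3 genes, ATF3, ASNS and CHAC1. That was 3 of the 17 windows, beside 3.61% of all 35116 windows. TGACGTCA, the cAMP response element, was found in PPP1R15A, in 1 of the 17 windows, and in 1.85% of all windows. The endoplasmic reticulum stress element was found in none of the 10 and in 0.0769% of all windows. No match says only that the letters are absent from this window, and a match is not shown to be a bound site. The 4 matches are printed 5′ to 3′ on the strand of the gene, with the matching letters in capitals. They lie at chr7:97872443-97872501 (minus strand) for ASNS, chr15:40953236-40953294 (plus) for CHAC1, chr1:212565191-212565249 (plus) for ATF3 and chr19:48872338-48872395 (plus) for PPP1R15A.
ASNS: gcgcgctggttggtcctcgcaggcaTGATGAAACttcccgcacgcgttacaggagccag
CHAC1: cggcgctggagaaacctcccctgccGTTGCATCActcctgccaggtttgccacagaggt
ATF3: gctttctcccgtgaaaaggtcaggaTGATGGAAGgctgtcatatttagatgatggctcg
PPP1R15A: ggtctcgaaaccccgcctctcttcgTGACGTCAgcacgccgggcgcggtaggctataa

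In CHAC1 the capitals are the element read on the opposite strand. The ASNS match begins 68 bases before the start and the CHAC1 match 210 bases before it. The log2 fold changes of the 3 genes with the composite element were 0.23 for ASNS, 0.44 for CHAC1 and 0.17 for ATF3. DDIT3 and TRIB3, with 0.38 and 0.46, had none of the searched letters in their windows. Sequence more than 250 bases before the start was not searched, so an element there would have been missed.

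The wider pathway was read from 8 lists of genes outside the 10. ATF4 is known to induce genes for amino acid synthesis and transport. Of 18 tested, 2 rose, 0 fell and 16 did not pass, with a median log2 fold change of 0.14. In 10 of them the overexpression values lay above the control values without overlap, and in 0 below, beside 8.81% above and 10.1% below over all tested genes. SLC7A5, the light chain of the large neutral amino acid transporter, was at 80.3, 69.2 and 73.2 FPKM in overexpression replicates 1 to 3, against 52.0, 55.3 and 51.0 FPKM in control replicates 1 to 3. SLC7A5 rose by 0.48 on the log2 scale (SE 0.06, limma adjusted p = 0.0242). MTHFD2, a mitochondrial folate enzyme, rose to 88.2 ± 2.00 FPKM in overexpressing cells, against 72.9 ± 1.71 FPKM in control cells (SD, n = 3 each, log2 fold change 0.27, limma adjusted p = 0.0442). Both calls depended on which libraries were included. SLC7A5 passed in 1 of the 6 fits that left out a library, the one without overexpression replicate 2, and MTHFD2 in none.

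Genes of tRNA synthetases and tRNA export, another class under ATF4 control, had log2 fold changes above 0 in 14 of 14 tested, against 49.7% of all tested genes. Of these 14, 0 passed the threshold, and their median was 0.09. At an unadjusted limma p under 0.05 there were 2 higher and 0 lower, against 5.81% and 6.9% of all tested genes. Without overlap, 6 of the 14 lay above and 0 below their controls, against 8.81% and 10.1% of all tested genes. WARS1, the tryptophanyl-tRNA synthetase, which interferon also induces, averaged 128 ± 10.6 FPKM in overexpressing and 100.3 ± 2.07 FPKM in control cells (SD, n = 3 each, limma adjusted p = 0.0537). GARS1 averaged 104.2 and 95.8 FPKM and YARS1 65.1 and 59.4 FPKM in overexpressing and control cells, with limma adjusted p = 0.277 and 0.395. Among 19 tested other targets of ATF4 or CHOP, 0 passed and the median was 0.07. At an unadjusted limma p under 0.05 there were 6 higher and 0 lower, against 5.81% higher and 6.9% lower over all tested genes. Without overlap, 3 of the 19 lay above and 1 below their controls, against 8.81% and 10.1% of all tested genes. GDF15, a secreted stress cytokine, was at 146, 122 and 176 FPKM in overexpression replicates 1 to 3, against 101, 99.6 and 95.8 FPKM in control replicates 1 to 3. Every overexpression library was higher, and the log2 fold change of 0.57 missed the threshold (SE 0.11, limma adjusted p = 0.0646). GADD45A averaged 54.5 and 47.1 FPKM and STC2, a secreted glycoprotein, 5.97 and 3.33 FPKM in overexpressing and control cells, neither past the threshold (limma adjusted p = 0.212 and 0.2897).

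Upstream of ATF4, 11 genes of the eIF2 kinases, their regulators and the eIF2 phosphatase were tested and 0 passed, with a median of 0.10. At an unadjusted limma p under 0.05 there were 3 higher and 1 lower, against 5.81% and 6.9% of all tested genes. Without overlap, 3 of the 11 lay above and 1 below their controls, against 8.81% and 10.1% of all tested genes. EIF2AK2, the kinase PKR, an interferon-induced sensor of double-stranded RNA, was at 102, 91.3 and 104 FPKM in overexpression replicates 1 to 3, against 79.7, 81.2 and 85.3 FPKM in control replicates 1 to 3 (log2 fold change 0.27, SE 0.06, limma adjusted p = 0.103). PKR values did not overlap between the groups. PPP1CB, a catalytic subunit of protein phosphatase 1, averaged 139 and 163 FPKM, and NCK1, an adaptor, 15.2 and 12.1 FPKM in overexpressing and control cells (limma adjusted p = 0.157 and 0.234). The kinases EIF2AK1 and EIF2AK4 averaged 157 and 30.5 FPKM in overexpressing cells and 155 and 31.1 FPKM in control cells. These 2 kinases were picked after their values were seen, to complete the set of eIF2 kinases. Among 10 tested subunits and relatives of eIF2 and eIF2B, 0 passed and the median was 0.07. Of these, 2 were higher and 1 lower at an unadjusted limma p under 0.05, beside 5.81% and 6.9% of all tested genes. Without overlap, 2 of the 10 lay above and 1 below their controls, against 8.81% and 10.1% of all tested genes. EIF2S1, the subunit that the kinases phosphorylate, averaged 156 and 135 FPKM, EIF2S2 65.2 and 59.2 FPKM, and EIF2D, an alternative initiation factor, 24.0 and 28.1 FPKM in overexpressing and control cells, with limma adjusted p = 0.251, 0.309 and 0.230.

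Of 15 tested genes listed as partners of ATF4, CHOP or ATF3, all bZIP factors except NUPR1, 1 rose, 0 fell and 14 did not pass. Of the 15, 3 (FOSL1, NUPR1 and CEBPG) were higher and 0 lower at an unadjusted limma p under 0.05 (5.81% and 6.9% of all tested genes). Without overlap, 2 of the 15 lay above and 1 below their controls, against 8.81% and 10.1% of all tested genes. In 9 of the 15 the log2 fold change was above 0, beside 49.7% of all tested genes, and the median was 0.02. FOSL1, an AP-1 subunit, rose to 47.0 ± 3.15 FPKM in overexpressing cells, against 34.8 ± 0.366 FPKM in control cells (SD, n = 3 each, log2 fold change 0.42, SE 0.06, limma adjusted p = 0.0278). It did not pass without overexpression replicate 1 or without any 1 of the 3 control replicates, which left 0 of the 15. In the ATF6 and IRE1 arms of the unfolded protein response, HSPA5, the chaperone BiP, was the 1 gene of 22 tested that passed. It rose to 264 ± 7.33 FPKM in overexpressing cells, against 196 ± 4.41 FPKM in control cells (SD, n = 3 each, log2 fold change 0.42, limma adjusted p = 0.0139), and 12 of the 22 lay above and 0 below their controls without overlap, against 8.81% above and 10.1% below over all tested genes. HSPA5 did not pass when any 1 of the 3 control replicates was left out, which left 0 of the 22. Genes listed as p53 targets, tested because SESN2 and ATF3 also answer to p53, had 0 of 11 past the threshold and a median of -0.08. Of the p53 targets, 1 was higher and 1 lower at an unadjusted limma p under 0.05, near the 5.81% and 6.9% of all tested genes. Without overlap, 1 of the 11 lay above and 3 below their controls, against 8.81% and 10.1% of all tested genes. A log2 fold change above 0 was seen in 3 of the 11, against 49.7% of all tested genes. ZMAT3 averaged 2.69 and 3.54 FPKM, CDKN1A 35.5 and 31.6 FPKM and BTG2 2.46 and 3.17 FPKM in overexpressing and control cells, with limma adjusted p = 0.320, 0.322 and 0.393.

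**Figure D4:**
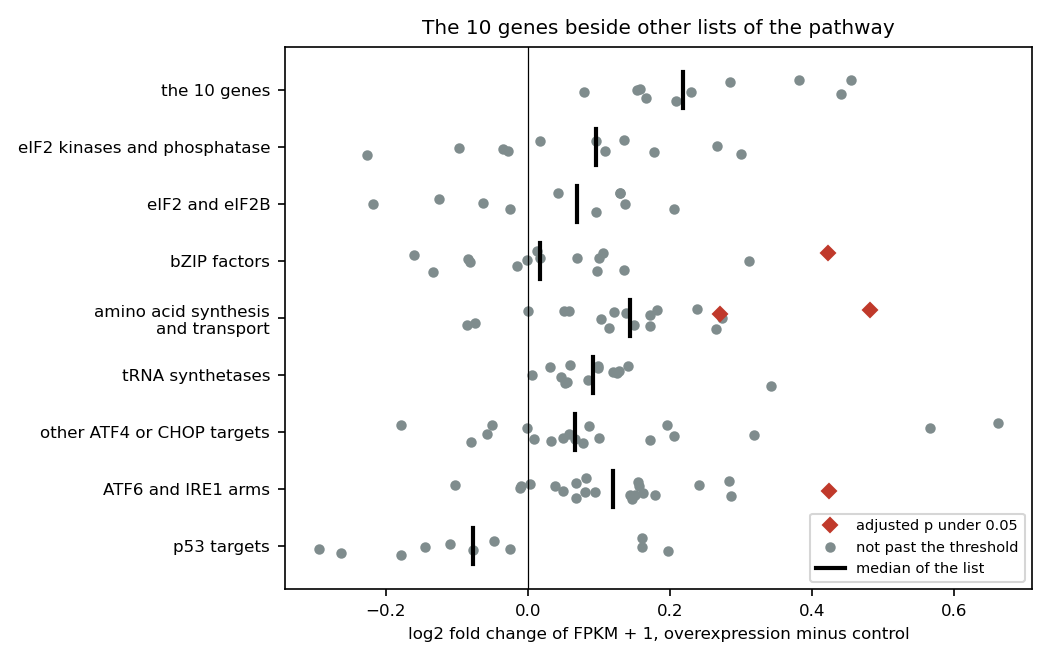
Log2 fold change of FPKM + 1, overexpression minus control (x axis), of every tested gene in the set of 10 and in 8 other lists of the pathway (rows). Diamonds passed an adjusted p of 0.05 in limma, grey points did not, and black bars are list medians. The 10 genes have a median of 0.22 and no diamond, while the diamonds are FOSL1, SLC7A5, MTHFD2 and HSPA5, and the p53 targets have a median of -0.08.

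Among 7589 other tested genes with a mean of at least 10 FPKM, IER3, an immediate early gene, followed DDIT3 most closely across the 6 libraries. The root mean square difference of their deviations from the control mean was 0.01 on the log2(FPKM + 1) scale, against a median of 0.29 for all genes compared. IER3 was at 26.1, 21.8 and 23.7 FPKM in overexpression replicates 1 to 3, against 17.9, 17.7 and 17.95 FPKM in control replicates 1 to 3. JAG1, a Notch ligand, and WARS1 came next, at 0.06 and 0.07. For ATF4 the closest were PIM1, C11orf68 and CD70, at 0.02, 0.03 and 0.04, against a median of 0.16. The measure covers 6 libraries only and has no test.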

How the data were processed

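RNA was sequenced from 6 libraries of U251 cells, 3 overexpressing XLOC013218 and 3 control, grouped by title. Per the labels' protocols, libraries were stranded and poly(A)-selected, whereas the design text describes cytoplasmic RNA that was not; this affects which RNAs are seen and is unresolved. The authors deposited 1 table of gene FPKM per library, with 2 decimals. Build hg18, edgeR, RSEM 1.3.1, Cufflinks 2.2.1, Bowtie and TopHat appear without roles in the submitters' processing notes. The tables end at different places among assembled loci, after the last Ensembl gene, and an unfinished last line (5 tables) was not read. Symbols matched 19447 of 20330 Ensembl identifiers.

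Genes listed in every table and averaging 1 FPKM or more (11731) were tested on log2(FPKM + 1), which understates changes of low genes, with limma-trend (limma 3.58.1, R 4.3.3), group as the only term, two-sided, with Benjamini-Hochberg adjustment over all tested genes and a threshold of 0.05. The fit was run on simulated data with planted changes larger than those of the 10 genes, so how often smaller changes are found was not tested. Summaries used Python 3.11.15 and pandas 2.3.3. Named outside the 10 genes were, per list, those past the threshold, otherwise the 3 with the lowest p. The 10 genes and the lists were chosen with earlier results of these data known. Of the 127 genes of the 8 lists, 7 were not tested. Alternatives covered pseudocount, filter, scaling, trend, weights, a replicate block and leaving out each library. No source used here says that replicate numbers pair libraries.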

Additional observations from a re-analysis of the deposited data

How the results depend on the processing

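The log2 fold change was above 0 for each of the 10 genes under all 16 alternatives, 160 values in all, of which 3 passed the threshold, all of DDIT3. The median of the 10 stayed between 0.18 and 0.25, with the lower end without overexpression replicate 1. The number of the 10 past the threshold was 1 with a minimum mean of 5 FPKM and 1 with array quality weights, and 0 to 1 with a library left out. Over all tested genes, 61 passed in the reported fit, 1 when low genes were kept, 1 with limma's trend switched off, 197 with array quality weights, and 1 to 60 with a library left out. The replicate block gave 19 genes, none of the 10 among them, and 0 bZIP factors and 0 amino acid genes. No source used here says that same-numbered libraries share a culture or a preparation. Their correlations of deviations were -0.04, -0.06 and 0.04, which with 3 libraries per group cannot exclude pairing.

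With no filter, and likewise without a trend, 0 bZIP factors, 0 amino acid genes and 0 genes of the ATF6 and IRE1 arms passed. With a minimum mean of 5 FPKM, 1 tRNA synthetase, 1 other ATF4 or CHOP target and 2 genes of the ATF6 and IRE1 arms passed. Rescaling to TPM gave 1 amino acid gene and 2 genes of the ATF6 and IRE1 arms, and quantile normalization also gave 2 genes of the ATF6 and IRE1 arms. Array quality weights gave 1 eIF2 kinase, 4 amino acid genes, 1 tRNA synthetase, 1 other target and 3 genes of the ATF6 and IRE1 arms. With a library left out, the eIF2 kinase list had 0, and each of the other lists named here had 0 to 1. The cause of these shifts was not tested. Among the 10 genes, 7 had no overlap as deposited, 6 after rescaling to TPM, and 7 to 9 with a library left out (settings chosen after seeing the data). As deposited the share of all tested genes was 8.81%, and it is not given for the other settings. Leaving out a library makes separation easier for any gene, so those counts cannot show that the separation is stable. FPKM without read totals gives no counting error, which limits what can be said of the depth behind each value.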
